A study of Mus musculus with 24 samples.

Results

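The retinal progenitor transcription factors Rax, Pax6, Sox2, Sox9, Six3, Six6, Lhx2, Hes1 and Nr2e1 were followed in mouse retinal organoids derived from embryonic stem cells. They were chosen by name, and each matched 1 Ensembl identifier of the gene table, so the set holds 9 of 33846 genes. In the developing eye these factors mark and maintain dividing retinal progenitors. Rax, Pax6, Six3, Six6 and Lhx2 form the eye field network that specifies the optic vesicle, Sox2 keeps progenitors competent to become neurons, and Hes1 is an effector of Notch signalling that holds back neuron formation. Nr2e1, also called Tlx, is a nuclear receptor that represses transcription and sustains neural progenitors, and Sox9 is a progenitor factor that stays on in Mueller glia, the radial glial cells of the retina. In the mature mouse retina Pax6 is kept in amacrine and ganglion cells, Sox2 in Mueller glia and a set of amacrine cells, and Lhx2 and Rax in Mueller glia.

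Polyadenylated RNA of whole organoids was sequenced from 24 libraries in 9 groups. RWB are optic cups cut out at day 10 (D10) of differentiation and grown in a rotating-wall bioreactor, a turning vessel that keeps tissue in suspension, with 2 libraries at D18, 3 at D22 and 3 at D25. SSCd are optic cups cut out at D10 and grown in static suspension, with 3 libraries each at D18, D22 and D28. SSCi are organoids left intact in static suspension, with 2 libraries at D18, 2 at D25 and 3 at D32. All cultures received N2 supplement, taurine, 9-cis retinal and insulin-like growth factor 1 in the maturation medium. RWB and SSCd also received serum, B27 without vitamin A and non-essential amino acids starting at D18, whereas SSCi received them starting at D26. Day and time since these additions cannot be told apart in RWB and SSCd, where D22 and the last day both follow their start. In SSCi D18 and D25 both precede the additions, which cannot be told apart from day at D32. The stem cells came from wild-type blastocysts of Nrl-GFP transgenic mice or from the R1 clone, and the labels do not say which library came from which. The series calls its repeated experiments biological replicates and does not say more about how far they were separate.

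Total estimated counts per library lay between 13284632 and 21604446. Mitochondrially encoded genes took 8.26% to 13.1% of the counts in 4 libraries, namely replicate 1 of RWB D22, RWB D25, SSCd D18 and SSCd D22, and at most 5.76% in the other libraries. SSCi D18 replicate 1 stood apart by its mesenchyme genes: 8 of them, collagens among them, summed to 6432 CPM (estimated counts scaled to library size, with TMM factors between libraries), against 22.6 CPM in SSCi D18 replicate 2 and at most 295.7 CPM in any other library. Comparisons of members with SSCi D18 are therefore given with and without this library. Lens genes summed to at most 1.55 CPM and pluripotency genes to at most 22.2 CPM in every library. In bulk RNA, fewer cells of a type and less RNA per cell cannot be told apart.

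Per length, Pax6 was the most abundant of the 9 genes, at 529.9 TPM, a measure of counts per transcript length and library size, averaged over the 9 groups. Rax followed at 114 TPM, Six3 at 68.1, Lhx2 at 46.7, Six6 at 38.5, Sox2 at 32.4, Nr2e1 at 25.7, Hes1 at 24.1 and Sox9 at 8.39 TPM. Every member passed the filter on low counts, and the lowest estimated count of any of them in any library was 64.4, for Nr2e1. Rax, Sox2, Sox9 and Six6 are each represented by 1 annotated transcript, while Pax6 has 26. The antisense genes Six3os1, Six6os1, Sox2ot and Pax6os1 are not analysed here, and the sources do not state whether strand was used in counting.

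The promoters of Sox2 and Nr2e1, whose levels fell in every culture, and the pair of Pax6 promoters, at which the starts of Pax6 transcripts are counted further on, are shown because the results turn on these genes. Each is the 250 bases before a RefSeq transcription start on GRCm38.p6, written 5′ to 3′ on the strand of the gene. Capitals mark matches on either strand to any of 7 motifs searched: ACAAAG, bound by Sox factors, TAATTA, the homeodomain core, TGATAC, bound by Six3 and Six6, AAGTCA, bound by Nr2e1, TGGGAA, bound by the Notch partner Rbpj, the box CCAAT, and the cyclic AMP response element TGACGTCA. The motifs do not overlap each other in these windows.
Sox2, chr3:34649745-34649994, plus strand: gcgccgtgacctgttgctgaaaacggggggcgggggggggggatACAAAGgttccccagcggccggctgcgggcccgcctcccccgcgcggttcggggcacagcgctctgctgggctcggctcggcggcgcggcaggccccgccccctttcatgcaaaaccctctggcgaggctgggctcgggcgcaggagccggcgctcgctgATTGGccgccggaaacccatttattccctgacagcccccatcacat
Nr2e1, chr10:42583591-42583840, minus strand: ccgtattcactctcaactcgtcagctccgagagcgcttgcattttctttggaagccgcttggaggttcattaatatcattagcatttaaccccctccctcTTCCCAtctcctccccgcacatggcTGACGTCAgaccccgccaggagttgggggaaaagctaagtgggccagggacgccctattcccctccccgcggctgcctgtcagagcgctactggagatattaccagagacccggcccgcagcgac
Pax6 upstream start, chr2:105668646-105668895, plus strand: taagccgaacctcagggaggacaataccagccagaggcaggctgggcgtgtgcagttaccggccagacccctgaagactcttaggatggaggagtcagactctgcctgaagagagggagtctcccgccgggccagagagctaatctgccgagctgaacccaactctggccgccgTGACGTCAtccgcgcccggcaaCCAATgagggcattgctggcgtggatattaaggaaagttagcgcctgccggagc
Pax6 downstream start, chr2:105682213-105682462, plus strand: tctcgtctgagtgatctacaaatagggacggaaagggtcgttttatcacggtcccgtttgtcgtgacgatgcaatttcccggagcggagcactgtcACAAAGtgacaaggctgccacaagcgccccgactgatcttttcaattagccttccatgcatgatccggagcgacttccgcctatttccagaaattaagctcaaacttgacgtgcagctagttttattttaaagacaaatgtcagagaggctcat
The Sox2 window held ACAAAG at 206 bases before its start, letters that 16.5% of all 32851 RefSeq promoters of this length hold. It also held CCAAT, which 33.8% hold. The Nr2e1 window and the upstream Pax6 window each held TGACGTCA, present in 1.5% of promoters, and the Nr2e1 window held TGGGAA, present in 21.6%. The upstream Pax6 window held CCAAT and the downstream one ACAAAG. None of the 8 windows found for Sox2, Nr2e1, Pax6, Six3, Six6 and Lhx2 held the homeodomain core (in 4.8% of promoters), the letters bound by Six3 and Six6 (in 4.6%) or those bound by Nr2e1 (in 13.1%). A match is a description of the letters only.

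Within each culture, the last day was compared with D18 to ask how the progenitor factors changed as the organoids matured. Sox2, Nr2e1, Lhx2, Hes1, Six6 and Six3 fell in all 3 cultures, while Pax6 was called in none. Rax was called as lower in SSCd and Sox9 as lower in SSCi. In RWB 6 of 9 members were lower at D25 than at D18 (edgeR quasi-likelihood test, Benjamini-Hochberg adjusted p under 0.05 over 16792 genes), where 14% of all genes tested were lower. In SSCd 7 of 9 were lower at D28, where 17.1% of all genes were, and in SSCi 7 of 9 were lower at D32, where 20.5% were. No member was higher in any of these comparisons, against 14.9%, 17.5% and 16.2% of all genes in RWB, SSCd and SSCi. The median log2 fold change of the 9 members was -1.33 in RWB, -1.76 in SSCd and -1.64 in SSCi, beside 0.06, 0.02 and -0.05 over all genes tested.

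**Figure D1:**
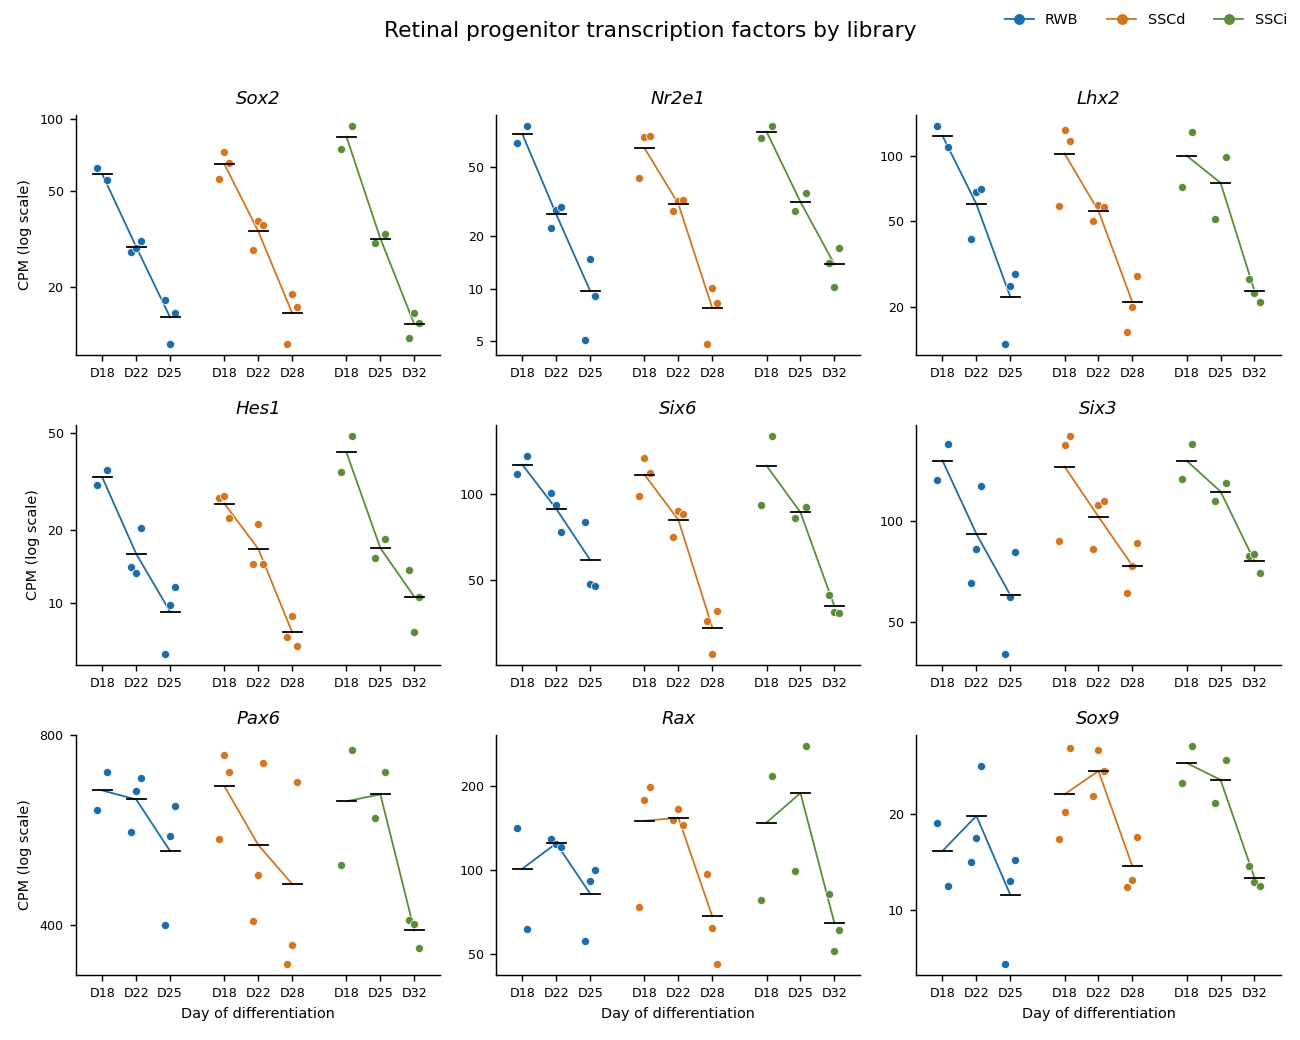
CPM of the 9 genes on a log axis (vertical) against culture and day of differentiation (horizontal), 1 point per library, black bars for group means and lines joining the means of a culture. Sox2, at 55.7 to 93.9 CPM in the D18 libraries, is at 11.6 to 18.7 CPM in the libraries of the last days, and Pax6, Rax and Sox9 show wider spread and overlap between days.

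Nr2e1 (ENSMUSG00000019803, chr10:42561963-42583632) showed the largest fall of the 9 genes in RWB and SSCd. In RWB it had 68.0 and 85.3 CPM at D18, 22.2, 28.2 and 29.5 CPM at D22, and 5.08, 14.9 and 9.13 CPM at D25. In SSCd it had 43.2, 73.6 and 74.6 CPM at D18, 27.9, 31.9 and 32.0 CPM at D22, and 4.85, 10.0 and 8.34 CPM at D28. In SSCi it had 72.9 and 85.6 CPM at D18, 27.7 and 35.1 CPM at D25, and 14.0, 10.3 and 17.2 CPM at D32. The libraries of the 3 days did not overlap in any culture, and each day was lower than the one before. The log2 fold change from D18 to the last day was -2.98 in RWB (SE 0.35, adjusted p = 3.6e-06), -3.04 in SSCd (SE 0.34, adjusted p = 8.9e-07) and -2.52 in SSCi (SE 0.35, adjusted p = 1.2e-05).

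Sox2 (ENSMUSG00000074637, chr3:34650405-34652461), a single-exon gene, fell in even steps and with little spread between libraries. In RWB it had 62.5 and 55.7 CPM at D18, 28.0, 29.1 and 31.0 CPM at D22, and 17.8, 11.6 and 15.5 CPM at D25. In SSCd it had 56.3, 73.1 and 65.6 CPM at D18, 28.5, 37.6 and 36.2 CPM at D22, and 11.6, 18.7 and 16.5 CPM at D28. SSCi libraries had 75.2 and 93.9 CPM at D18, 30.4 and 33.3 CPM at D25, and 12.3, 15.7 and 14.2 CPM at D32. No day overlapped another within a culture. The change to the last day was -1.98 in RWB (SE 0.21, adjusted p = 1.1e-06), -2.06 in SSCd (SE 0.20, adjusted p = 1.6e-07) and -2.59 in SSCi (SE 0.21, adjusted p = 3.4e-08). Sox2 and Nr2e1 were the 2 members called at every step in every culture, although the first-step calls of Nr2e1 and its second-step call in SSCi rested on single libraries.

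Lhx2 (ENSMUSG00000000247, chr2:38339281-38369733), a LIM homeodomain factor needed for the eye field, is also kept in Mueller glia. In RWB it had 138 and 109.8 CPM at D18, 41.0, 68.0 and 70.4 CPM at D22, and 13.5, 25.0 and 28.2 CPM at D25. In SSCd it had 58.5, 132 and 117 CPM at D18, 49.9, 59.0 and 57.7 CPM at D22, and 15.2, 20.0 and 27.7 CPM at D28. In SSCi it had 71.7 and 129 CPM at D18, 51.2 and 98.8 CPM at D25, and 27.0, 23.2 and 21.0 CPM at D32. D18 and the middle day overlapped in SSCd and SSCi, and the last day lay below every earlier library in each culture. The change to the last day was -2.47 in RWB (SE 0.37, adjusted p = 4.8e-05), -2.29 in SSCd (SE 0.35, adjusted p = 3.9e-05) and -2.08 in SSCi (SE 0.37, adjusted p = 0.00019).

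Hes1 (ENSMUSG00000022528, chr16:30064384-30067796), the basic helix-loop-helix repressor downstream of Notch, had 30.5 and 35.3 CPM at D18 in RWB, 14.1, 13.3 and 20.4 CPM at D22, and 6.19, 9.84 and 11.6 CPM at D25. In SSCd it had 27.1, 27.5 and 22.5 CPM at D18, 14.5, 21.1 and 14.4 CPM at D22, and 7.24, 8.85 and 6.63 CPM at D28. SSCi libraries had 34.6 and 48.8 CPM at D18, 15.4 and 18.3 CPM at D25, and 13.7, 7.62 and 10.6 CPM at D32. The days did not overlap within any culture. The change to the last day was -1.83 in RWB (SE 0.28, adjusted p = 6.6e-05), -1.76 in SSCd (SE 0.27, adjusted p = 3.4e-05) and -1.97 in SSCi (SE 0.28, adjusted p = 2.0e-05).

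Six6 and Six3, homeodomain factors of 1 family, fell as well. Six6 (ENSMUSG00000021099, chr12:72939892-72944899), which supports growth of the neural retina, had 118 and 136 CPM at D18, 101, 91.7 and 73.8 CPM at D22, and 80.0, 48.3 and 47.6 CPM at D25 in RWB. It had 98.6, 134 and 119 CPM at D18, 70.8, 87.4 and 85.5 CPM at D22, and 35.7, 27.4 and 38.7 CPM at D28 in SSCd. The SSCi values were 91.4 and 161 CPM at D18, 82.4 and 90.2 CPM at D25, and 44.3, 38.6 and 38.1 CPM at D32. The last day lay below D18 without overlap in each culture, with changes of -1.12 in RWB (SE 0.24, adjusted p = 0.0016), -1.79 in SSCd (SE 0.23, adjusted p = 4.6e-06) and -1.64 in SSCi (SE 0.24, adjusted p = 2.7e-05). Six3 (ENSMUSG00000038805, chr17:85613608-85629302), which represses Wnt signalling in the anterior neural plate, had 133 and 170.4 CPM at D18, 65.1, 82.5 and 127 CPM at D22, and 40.1, 59.4 and 80.6 CPM at D25 in RWB. It had 87.3, 169 and 179.8 CPM at D18, 82.6, 112 and 115 CPM at D22, and 61.0, 73.6 and 86.0 CPM at D28 in SSCd. The SSCi values were 133 and 169 CPM at D18, 115 and 129.8 CPM at D25, and 78.4, 79.7 and 69.7 CPM at D32. Here too the last day and D18 did not overlap, although the margin in SSCd was narrow, with 86.0 CPM in the highest D28 library against 87.3 CPM in the lowest D18 library. The changes were -1.33 in RWB (SE 0.31, adjusted p = 0.0025), -0.98 in SSCd (SE 0.28, adjusted p = 0.0097) and -0.995 in SSCi (SE 0.31, adjusted p = 0.015).

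**Figure D2:**
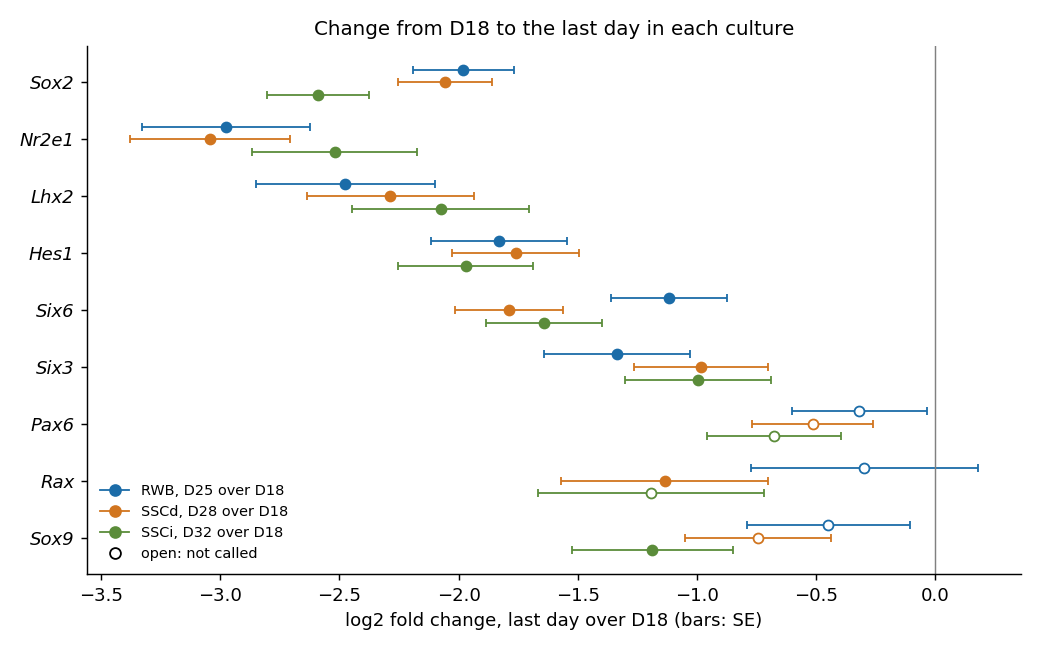
log2 fold change of each gene from D18 to the last day (horizontal, bars are SE) in RWB, SSCd and SSCi, with filled points for an edgeR adjusted p under 0.05. Nr2e1 lies near -3 in RWB and SSCd, and Pax6, between -0.68 and -0.32, is open in all 3 cultures.

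Pax6 (ENSMUSG00000027168, chr2:105668900-105697364), the paired-domain and homeodomain factor at the head of the eye network, was not called in any culture. It had 607 and 699 CPM at D18, 562, 652 and 683 CPM at D22, and 400.5, 552 and 618 CPM at D25 in RWB. It had 547, 744 and 699 CPM at D18, 405, 479.8 and 721 CPM at D22, and 347, 372 and 674 CPM at D28 in SSCd. In SSCi it had 498 and 758 CPM at D18, 590.5 and 698 CPM at D25, and 408, 401 and 367 CPM at D32. Days overlapped in RWB and SSCd, and in SSCi the D32 libraries lay below both earlier days. Its changes were -0.32 in RWB (SE 0.28, adjusted p = 0.43), -0.51 in SSCd (SE 0.26, adjusted p = 0.13) and -0.68 in SSCi (SE 0.28, adjusted p = 0.066). Within single libraries, log2 CPM of Pax6 exceeded that of Sox2 by 2.72 to 3.65 at D18 and by 4.31 to 5.55 on the last days, a difference that does not depend on scaling between libraries.

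Rax (ENSMUSG00000024518, chromosome 18), the retina and anterior neural fold homeobox factor, had the largest SE of the 9 genes in each culture. It had 141 and 61.4 CPM at D18, 129, 125 and 121 CPM at D22, and 55.7, 91.2 and 100.2 CPM at D25 in RWB. It had 73.9, 178 and 199 CPM at D18, 152, 165 and 145 CPM at D22, and 96.9, 62.0 and 46.3 CPM at D28 in SSCd. SSCi had 78.0 and 218 CPM at D18, 99.0 and 279 CPM at D25, and 82.0, 51.2 and 61.2 CPM at D32. At D18 the libraries of a group differed by more than 2-fold in every culture, and D18 overlapped the last day everywhere. The changes were -0.30 in RWB (SE 0.48, adjusted p = 0.68), -1.14 in SSCd (SE 0.43, adjusted p = 0.049) and -1.19 in SSCi (SE 0.47, adjusted p = 0.055). Its call in SSCd was lost in 9 of 13 alternatives, 4 of them with 1 library left out, and its value in RWB was 0.43 without D18 replicate 1.

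Sox9 (ENSMUSG00000000567, chr11:112782224-112787760), an HMG-box factor of progenitors and Mueller glia, had 18.7 and 11.9 CPM at D18, 14.2, 16.8 and 28.2 CPM at D22, and 6.82, 12.4 and 14.4 CPM at D25 in RWB. It had 16.8, 20.3 and 32.1 CPM at D18, 22.7, 31.7 and 27.3 CPM at D22, and 11.9, 12.4 and 16.9 CPM at D28 in SSCd. SSCi had 25.0 and 32.6 CPM at D18, 21.6 and 29.5 CPM at D25, and 13.7, 12.3 and 11.9 CPM at D32. The last day stood clear of both earlier days in SSCi, and D18 and the last day overlapped in RWB and SSCd. The changes were -0.45 in RWB (SE 0.34, adjusted p = 0.35), -0.75 in SSCd (SE 0.31, adjusted p = 0.066) and -1.19 in SSCi (SE 0.34, adjusted p = 0.0087). Leaving out SSCi D18 replicate 2 ended its call in SSCi (-0.94, adjusted p = 0.094).

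The 3 first-to-last comparisons were tried without the libraries that stood apart. Without SSCi D18 replicate 1, the library rich in mesenchyme genes, the median of the 9 members at D32 of SSCi was -2.01, with Pax6 at -0.97 and Rax at -1.77. Leaving out the other D18 library of SSCi gave weaker values for Six3 (-0.77) and Sox9 (-0.94), and neither kept its call. Without the libraries over 8% mitochondrial counts, a choice made after seeing the data, the calls were 6 in RWB and 8 in SSCd, with Sox9 as the added gene (-0.95, adjusted p = 0.013). Of the 16699 genes then tested, 2604 were lower in RWB and 3119 in SSCd, beside 2347 and 2865 of 16792 with all libraries.

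The single steps showed which genes were called early. From D18 to D22 in RWB, Sox2 (-1.01), Hes1 (-1.04) and Nr2e1 (-1.52) were called as lower, 3 of 9 where 4.88% of all genes were lower. In SSCd Sox2 (-0.93) and Nr2e1 (-1.06) were, 2 of 9 where 5.13% were. In SSCi, where the first step was longer, Sox2 (-1.41), Hes1 (-1.31) and Nr2e1 (-1.34) were called as lower at D25 than at D18, 3 of 9 where 10.9% of all genes were. Without SSCi D18 replicate 1, Nr2e1 was no longer called in SSCi (-1.43). At this first step Nr2e1 also lost its call without RWB D18 replicate 2 (-1.37, adjusted p = 0.091), without any 1 SSCd library other than D18 replicate 1 (-1.11 to -0.93), and without any 1 of the other SSCi libraries (-1.50 to -1.10), while Sox2 kept its call each time. Hes1 lost its call without any 1 RWB library other than D22 replicate 3, and without SSCi D18 replicate 2 or D25 replicate 1. Sox2 and Nr2e1 were called at the first step in each culture, while Six3, Six6 and Lhx2 were called at this step in none. This does not show that Six3, Six6 and Lhx2 were unchanged. Lhx2 stood at -1.05 in RWB, -0.88 in SSCd and -0.42 in SSCi (edgeR adjusted p = 0.073, 0.098 and 0.52). Six3 stood at -0.73, -0.50 and -0.31 and Six6 at -0.52, -0.53 and -0.55 in RWB, SSCd and SSCi. In a replicate block, which pairs libraries by their number, Lhx2 was added at the first step of SSCd (-0.82, adjusted p = 0.036), where same-numbered libraries deviated together. Rax, at 0.30, 0.04 and 0.35 in RWB, SSCd and SSCi, was not called at the first step, and each sign turned with 1 library left out, to -0.20 without RWB D18 replicate 2, -0.29 without SSCd D18 replicate 1 and -0.58 without SSCi D25 replicate 2.

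At the second step Lhx2 was called in every culture with all libraries kept. In RWB its call was lost without D22 replicate 2, D22 replicate 3 or D25 replicate 1 (-1.32 to -1.195). It was also lost there in a fit of only the groups compared. In SSCd its call was lost without D22 replicate 2, D28 replicate 1 or D28 replicate 2 (-1.37 to -1.22). In RWB from D22 to D25, Sox2 (-0.97), Lhx2 (-1.42) and Nr2e1 (-1.45) were lower, 3 of 9 where 3.23% of all genes were. In SSCd from D22 to D28, Sox2 (-1.13), Six6 (-1.26), Lhx2 (-1.40), Hes1 (-1.14) and Nr2e1 (-1.98) were lower, 5 of 9 where 5.05% were, and the replicate block added Sox9 (-1.01, adjusted p = 0.014). In SSCi from D25 to D32, Rax (-1.54), Sox2 (-1.18), Six6 (-1.10), Lhx2 (-1.66) and Nr2e1 (-1.18) were lower, 5 of 9 where 4.54% were. Rax (edgeR adjusted p = 0.049) lost its call without any 1 D32 library (-1.75 to -1.40). It also lost it with RLE size factors, library totals, no filter, a replicate block or only the groups compared. Nr2e1 lost its call without D32 replicate 1 (-1.19) or 2 (-1.01) and with library totals, and stood at -1.405 without D25 replicate 1. The SSCi step leaned on D25 replicate 2. Without it 1 member, Sox2, was called and Rax stood at -0.61.

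Rotating and static culture of dissected optic cups were compared on the days they share. At D18 no member was called between RWB and SSCd, where 0.488% of all genes were, and none had an unadjusted p under 0.05. Log2 fold changes lay between -0.59 (Sox9) and 0.36 (Hes1), with SE from 0.21 to 0.49. At D22 again no member was called, none had an unadjusted p under 0.05, and 1.89% of all genes were called. Values ran from -0.46 (Sox9, SE 0.30) to 0.24 (Pax6, SE 0.26). DESeq2 called 0 of 9 on both days. Sox2 had 28.0, 29.1 and 31.0 CPM in RWB D22 against 28.5, 37.6 and 36.2 CPM in SSCd D22, and these groups overlapped. The D22 libraries of RWB and SSCd also deviated together by number, though no label says what a number shares. Within the 3 pairs Sox2, Nr2e1 and Rax were each lower in RWB in 3 of 3. Sox9, Six3 and Hes1 were lower in 2 of 3, and Pax6, Six6 and Lhx2 in 1 of 3. How many of all genes kept 1 direction in every pair was not counted, so these are descriptions only. With the replicate block Sox2, Nr2e1 and Rax stood at -0.21 (SE 0.18), -0.21 (SE 0.24) and -0.30 (SE 0.46), and none was called (edgeR adjusted p = 0.63, 0.75 and 0.82). Rax was the member whose libraries did not overlap at D22, with 129, 125 and 121 CPM in RWB against 152, 165 and 145 CPM in SSCd (-0.31, SE 0.43, adjusted p = 0.86). The share of all genes without overlap was not counted. The change from D18 to D22 was also compared between the cultures as an interaction. No member was called and none had an unadjusted p under 0.05, 0% of all genes were called by edgeR, and the members' differences lay between -0.46 (Nr2e1, SE 0.46) and 0.26 (Rax, SE 0.64). DESeq2 called 0 of 9 members here as well. A missing call does not show that the cultures were alike.

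Intact organoids were the other static control at D18. Between SSCd and SSCi 3.86% of all genes were called and no member was. The lowest values were those of Hes1 (-0.70, SE 0.28, unadjusted p = 0.022, adjusted p = 0.25) and Sox2 (-0.38, SE 0.21), whose libraries did not overlap, with 56.3, 73.1 and 65.6 CPM in SSCd against 75.2 and 93.9 CPM in SSCi for Sox2. Between RWB and SSCi at D18 5.23% of all genes were called and again no member was, with 2 members at an unadjusted p under 0.05, Sox9 (-0.91) and Sox2 (-0.52), by edgeR. DESeq2 called 0 of 9 in both comparisons. SSCi D18 replicate 1 enters both, and without it the count of members called was still 0. The calls over all genes rested on single libraries. Without SSCi D18 replicate 1 they were 0 for SSCd against SSCi (529 at an unadjusted p under 0.05) and 83 for RWB against SSCi, beside 649 and 878 with it. Leaving out SSCd D18 replicate 2 or 3 gave 92 and 0 (1778 at an unadjusted p under 0.05), leaving out SSCd D18 replicate 1 gave 380, and leaving out RWB D18 replicate 1 or 2 gave 64 and 34. Without SSCi D18 replicate 2 they were 1339 for SSCd and 1446 for RWB, each against SSCi.

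At D25, RWB and SSCi could be compared directly, RWB with serum and supplements and SSCi before their addition, so medium and culture cannot be told apart. All 9 values were negative and 5 members were called as lower in RWB, where 5.08% of all genes were lower and 3.6% higher. Lhx2 had 13.5, 25.0 and 28.2 CPM in RWB against 51.2 and 98.8 CPM in SSCi, a log2 fold change of -1.75 (SE 0.37, adjusted p = 0.0064). Nr2e1 had 5.08, 14.9 and 9.13 CPM in RWB against 27.7 and 35.1 CPM in SSCi (-1.69, SE 0.35, adjusted p = 0.0052). Neither gene's libraries overlapped. Sox2 had 17.8, 11.6 and 15.5 CPM in RWB against 30.4 and 33.3 CPM in SSCi (-1.09, SE 0.21, adjusted p = 0.0036). Sox9 had 6.82, 12.4 and 14.4 CPM in RWB against 21.6 and 29.5 CPM in SSCi (-1.19, SE 0.34, adjusted p = 0.034). Six3 had 40.1, 59.4 and 80.6 CPM in RWB against 115 and 129.8 CPM in SSCi (-1.03, SE 0.31, adjusted p = 0.042). Of the others, Six6 (-0.56, adjusted p = 0.15) and Hes1 (-0.87, adjusted p = 0.065) did not overlap either but were not called, and Rax (-1.20, adjusted p = 0.11) and Pax6 (-0.30, adjusted p = 0.53) overlapped. The share of all genes without overlap was not counted in this or any other comparison. Overlap is therefore a description of single genes only.

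**Figure D3:**
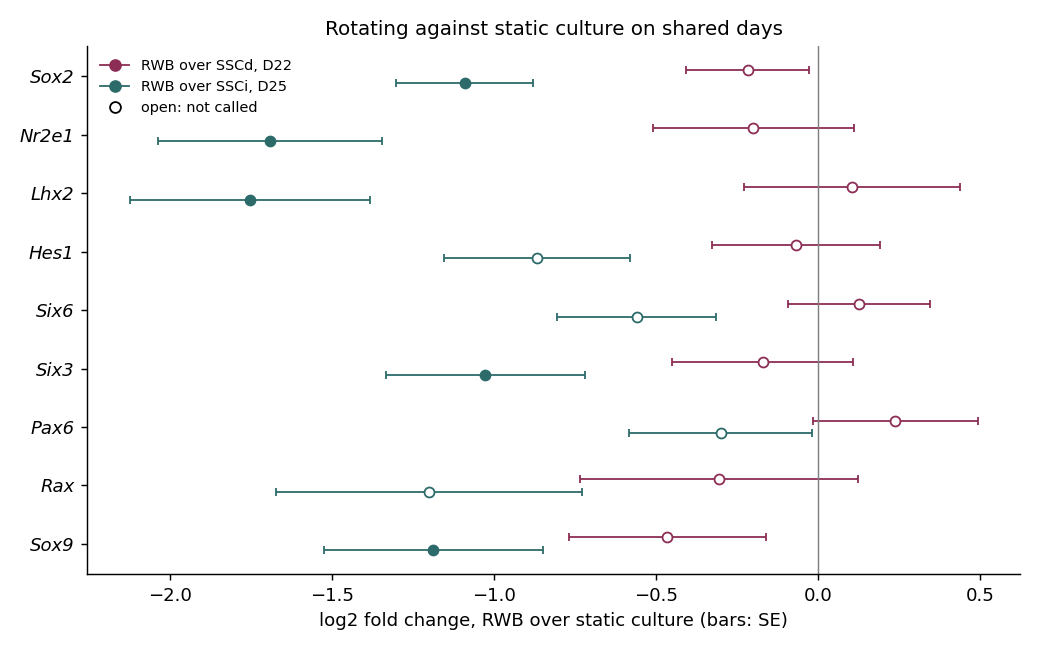
log2 fold change of each gene in RWB over static culture (horizontal, bars are SE), for SSCd at D22 and SSCi at D25, with filled points for an edgeR adjusted p under 0.05. The D22 values lie between -0.46 and 0.24 and are open, and the D25 values are all negative, down to -1.75 for Lhx2.

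These D25 calls rest on few libraries. Without SSCi D25 replicate 2 no member was called, with Lhx2 at -1.20 (adjusted p = 0.20) and Rax at -0.26. Over all genes 213 were then lower and 38 higher in RWB, beside 853 and 605 with all libraries. These were 495 and 103 without SSCi D25 replicate 1, 425 and 199 without RWB D25 replicate 1, 1024 and 1049 without RWB D25 replicate 3, and 62 and 28 in a fit of these groups alone. A fit of the 5 libraries alone also called none, DESeq2 called 6, and no value changed sign under any alternative. Over all genes DESeq2 also called more, with 1264 lower and 1145 higher in RWB. Whether RWB and SSCi changed differently from D18 to D25 was asked as an interaction, in which 1 member, Lhx2, was called at -2.06 (SE 0.55, adjusted p = 0.049), where 2.88% of all genes were. Nr2e1 stood at -1.64 (SE 0.51, adjusted p = 0.084) and Six3 at -1.03 (SE 0.46, adjusted p = 0.24). Over these days Lhx2 stood at -2.47 in RWB and -0.42 in SSCi (0.13 without SSCi D18 replicate 2), where the 2 D18 libraries, at 71.7 and 129 CPM, overlapped the D25 ones.

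Pax6 was the member with the most annotated transcripts, and the share of its counts at one start was higher on the last days. These measures were chosen after the transcript values had been seen, so they are given as a description with no test. The mouse gene is known to use several promoters, and an internal one gives a shorter protein without the paired domain. Counts were summed over the 6 transcripts that start within 200 bases of the downstream RefSeq start shown above, and over the 4 that start within 200 bases of the upstream one. Transcripts at neither start held a mean of 60.0%, 53.7% and 55.6% of Pax6 counts at D18 in RWB, SSCd and SSCi. On the last days they held 44.6%, 42.8% and 47.0%. Among them is the coding transcript Pax6-204, which starts between the RefSeq starts and held 27.05% of Pax6 counts over all libraries. The downstream share of all Pax6 counts was 12.8%, 19.4% and 23.2% at D25 in RWB, against 10.3% and 6.63% at D18. It was 19.9%, 18.2% and 20.9% at D28 in SSCd, against 9.35%, 10.5% and 11.4% at D18. In SSCi it was 16.3%, 16.2% and 14.5% at D32, against 6.92% and 9.88% at D18. The last day lay above D18 without overlap in each culture. The mean difference over the cultures was 8.85 percentage points. The means of the middle days lay between, with 13.1%, 16.4% and 20.3% in RWB D22, 12.5%, 12.3% and 20.8% in SSCd D22, and 10.1% and 19.0% in SSCi D25.

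The upstream share differed less, at 27.6% to 39.3% over the D18 libraries and 32.4% to 40.2% over the libraries of the last days (mean difference 2.79 points). The 6 downstream transcripts are annotated without a coding sequence, as processed transcripts or retained introns, and they share exons with coding transcripts, so the split of reads between them is an estimate. Without those annotated as retained introns the difference was 6.87 points, and with counts divided by transcript length it was 13.1 points. It lay between 8.07 and 9.79 points with any 1 of the 16 libraries left out.

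**Figure D4:**
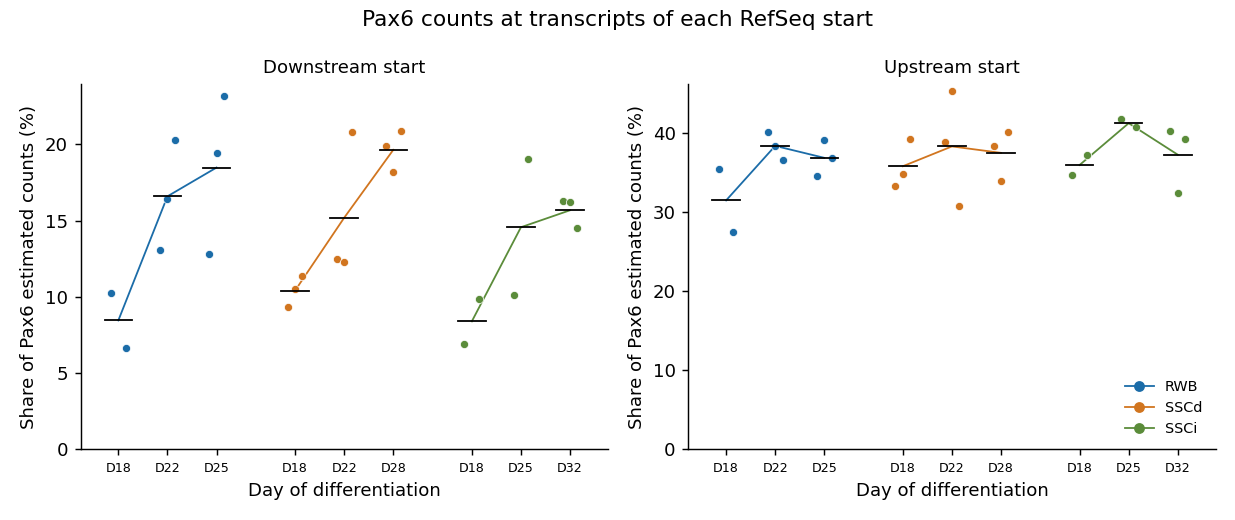
Share of Pax6 estimated counts (vertical, percent) at transcripts starting near the downstream RefSeq start (left) and the upstream one (right) by culture and day (horizontal), 1 point per library with black bars for means. The downstream share is 6.63% to 11.4% at D18 and 12.8% to 23.2% on the last days, while the upstream share overlaps between days.

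Exon 5a, which lengthens the paired domain of Pax6 and changes its DNA binding, lies at chr2:105684751-105684792 on the plus strand (GRCm38, GENCODE M21). It is shown with 12 bases of the neighbouring exons on each side, and capitals mark the 42 bases of the exon.
Pax6 exon 5a: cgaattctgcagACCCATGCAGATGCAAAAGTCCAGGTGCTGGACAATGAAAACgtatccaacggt
The share was taken over the 9 transcripts that hold exon 5a and the 10 that span its place without it, not over all Pax6 counts. Of these counts, transcripts with exon 5a held 24.6%, 26.6% and 20.4% at D25 in RWB, against 16.3% and 30.6% at D18. They held 36.7%, 32.4% and 41.7% at D28 in SSCd, against 35.1%, 20.8% and 24.3% at D18. In SSCi the share was 35.7%, 37.6% and 43.6% at D32, against 31.8% and 28.7% at D18. The groups overlapped in RWB and SSCd and not in SSCi, and the mean difference over the cultures was 6.44 points. The RWB means were close, at 23.5% at D18 and 23.9% at D25. They were 26.7% and 36.9% at D18 and D28 in SSCd, and 30.2% and 39.0% at D18 and D32 in SSCi.

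The members also differed in shape over the 9 groups. Likeness was measured as the root mean square difference of log2 CPM group means, each centred on its own mean, among 10969 genes averaging a log2 CPM of 3 or more. Among the 9 factors, Sox2 and Hes1 were nearest each other (0.23 on the log2 scale), as were Rax and Sox9 (0.23) and Pax6 and Six3 (0.34). Lhx2 was nearest Sox2 (0.30), Six6 nearest Hes1 (0.31) and Nr2e1 nearest Lhx2 (0.34), while Pax6 and Nr2e1 lay 1.02 apart. Outside the set, the genes most like Hes1 were Smo, the Hedgehog signal transducer (0.14), Specc1 (0.17) and Zc3hav1l (0.18). Those most like Nr2e1 were E2f2, a cell cycle transcription factor (0.23), Gli3, a Hedgehog effector (0.23), and Cdk2, a cyclin-dependent kinase (0.24). Those most like Lhx2 were Mex3a (0.13), Nsl1, a kinetochore subunit (0.13), and Lrp5, a Wnt co-receptor (0.16). Tpm4 (0.08), Pi4k2b (0.14) and Evc2 (0.16) were nearest Sox2. Pax6, Six3, Six6, Rax and Sox9 had 2410002F23Rik (0.07), Ptprf (0.08), Ptma (0.10), Rplp2 (0.17) and again Rplp2 (0.18) as their nearest genes.

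Other genes of the progenitor programme moved in the same comparisons. Of 24 further progenitor genes, 16 fell and 3 rose in RWB at D25, 18 fell and 2 rose in SSCd at D28, and 20 fell and 3 rose in SSCi at D32, with medians of -1.97, -1.66 and -2.52. Ccnd1, the D-type cyclin of retinal progenitors, was at 47.1 CPM in RWB D25 against 765 CPM in RWB D18 (-4.02, adjusted p = 5.9e-09). Sox11, an HMG-box factor of new neurons, fell by 3.05 in RWB and Neurog2, a proneural factor, by 2.19. Mab21l1 (1.06) and Meis2 (1.25), a homeodomain factor kept in amacrine cells, rose in RWB, and both rose in SSCd and SSCi. Of 16 Notch pathway genes 12, 12 and 14 fell in RWB, SSCd and SSCi, among them Nrarp (-2.35, -2.53 and -2.06), Rbpj (-1.30, -1.31 and -1.79) and the ligand Dll4 (-2.49, -3.10 and -3.98). Hey2, a Hes-related repressor, was the 1 that rose in each (1.75, 1.05 and 1.87). All 14 cell cycle genes fell in each culture, with medians of -3.25, -3.53 and -3.48. Without SSCi D18 replicate 1, 19 further progenitor genes fell and 2 rose in SSCi, and 13 Notch pathway and 14 cell cycle genes fell.

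Markers of cells that keep some of these factors were set beside them. The 14 cell cycle genes summed to 325 to 535 CPM in RWB D25, against 3457 to 3850 CPM in RWB D18. Of 10 amacrine cell genes 7 rose in each culture, among them Gad1, a GABA-synthesising enzyme (3.26, 3.00 and 4.70 in RWB, SSCd and SSCi), and the list summed to 722 to 1148 CPM in RWB D25 against 277 to 295 CPM in RWB D18. Gad2, the other GABA-synthesising enzyme, fell in RWB (-1.32, adjusted p = 0.0019) and SSCd (-0.84, adjusted p = 0.020). Without SSCi D18 replicate 1, 3 amacrine genes rose in SSCi. Of 11 Mueller glia genes 7, 5 and 7 rose and 1, Dkk3, which progenitors also express, fell in each (-1.54, -1.41 and -1.36). Rlbp1, the retinoid carrier of Mueller glia, rose by 2.34, 2.42 and 4.59. The list summed to 910.3 to 1299 CPM in RWB D25 against 1123 to 1344 CPM in RWB D18, to 931 to 1115 CPM in SSCd D28 against 1219 to 1425 CPM in SSCd D18, and to 1443 to 1627 CPM in SSCi D32 against 1581 to 1820.4 CPM in SSCi D18. These sums overlapped in RWB and SSCi and were lower at D28 without overlap in SSCd. Dkk3 is part of them, at a mean of 243.7 CPM in RWB D25 against 709.6 CPM in RWB D18. The sums therefore do not show how the other genes of the list moved. Ganglion cell genes fell in 8, 7 and 5 of 9 cases. Of 6 ciliary margin genes 1, 2 and 6 fell, and in SSCi they summed to 209.9 to 242 CPM at D32 against 504.5 to 673 CPM at D18, with 4 of 6 lower without SSCi D18 replicate 1. The part of these cell types in the levels of the 9 factors was not tested.

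**Figure D5:**
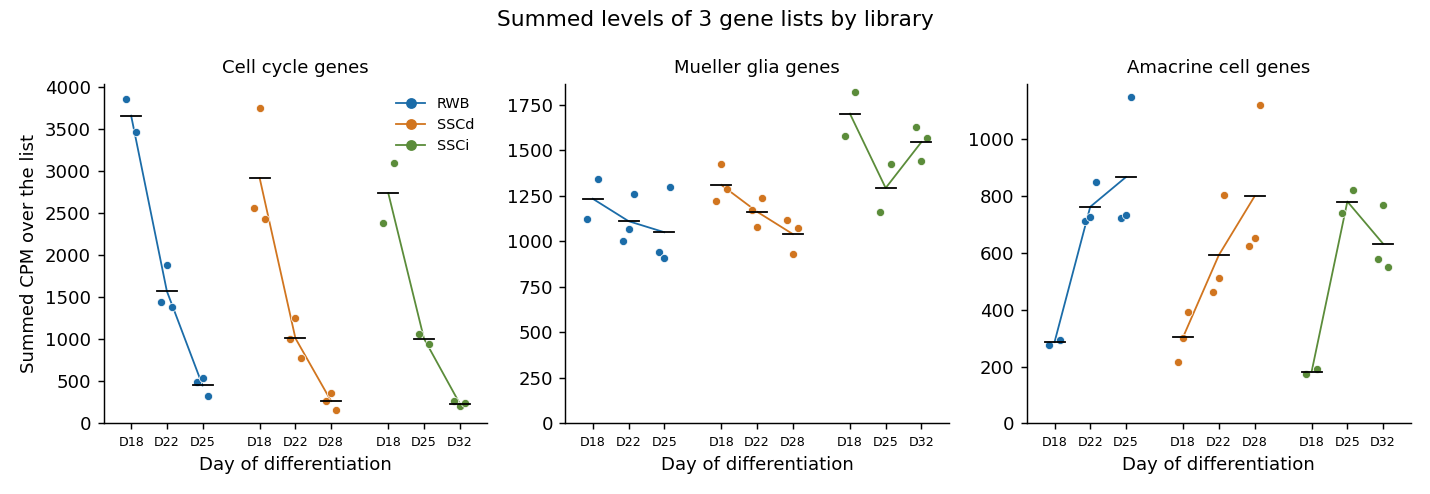
Summed CPM (vertical) of 14 cell cycle, 11 Mueller glia and 10 amacrine cell genes by culture and day (horizontal), 1 point per library with black bars for means. The cell cycle sum is lower on each later day, the amacrine sum is higher on the later days than at D18, and the Mueller glia sum is lower at D28 than at D18 in SSCd and overlaps between D18 and the last day in RWB and SSCi. The Mueller glia sum includes Dkk3, which progenitors also express and which fell in each culture.

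In the D25 comparison of RWB with SSCi, 13 of the 24 further progenitor genes and 9 of 16 Notch pathway genes were lower in RWB, with medians of -1.32 and -1.44 beside 0.04 over all genes, and 10 of 14 cell cycle genes were. Ccnd1 stood at 47.1 CPM in RWB against 338 CPM in SSCi (-2.84), and Heyl at 3.72 CPM in RWB against 34.7 CPM in SSCi (-3.22). Of 11 Mueller glia genes 1 was higher (Abca8a, 4.62) and 1 lower (Dkk3). Of 5 astrocyte genes 3 were higher in RWB, among them Gfap, a glial filament protein (38.3 CPM against 1.19 CPM in SSCi), and 0 were lower. Mesenchyme genes summed to 13.6 to 61.4 CPM in RWB and 5.49 to 9.36 CPM in SSCi, with none of 8 called. The part of any of these in the D25 values of the 9 factors was not tested.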

How the data were processed

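The authors deposited tables of estimated counts per gene and per transcript, not normalized. Per the labels' protocols, libraries were stranded and sequenced with paired reads. Per the submitters' processing notes kallisto 0.42.5, edgeR 3.13.9, limma 3.32.2 and GRCm38.p5 were used, with no role given, and the use of strand is not given in the sources used here. A further deposited table of scaled CPM was not used.

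Estimated counts were rounded. After filterByExpr 16792 genes were scaled by TMM and fitted in edgeR 4.0.16 (R 4.3.3, robust quasi-likelihood, 9 group means, 24 libraries), with Benjamini-Hochberg adjustment over all of them and a threshold of 0.05. A prior count of 2 was used for log2 CPM, and each SE is the estimate divided by the root of its F. All groups share 1 fit because so few libraries per group estimate the spread poorly. The test was tried on simulated data. TPM used GENCODE M21 lengths, which covered 99.3% of counts. All 9 members are named in every comparison described. Of the other lists, counts cover all tested genes, and named genes are taken from up to 4 per direction with the smallest p. The 3 genes most like each member were found by the root mean square difference. The members and lists were chosen with earlier results of these data known, and the Pax6 measures after seeing the data.

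Alternatives were RLE size factors, library totals, no filter, only the groups compared, a replicate block, each library left out, libraries over 8% mitochondrial counts left out (added after seeing the data) and DESeq2 1.42.0. No label says what a replicate number shares. Same-numbered libraries deviated together (3 pairs, each with a correlation of deviations over 0.1) between RWB D22 and D25 (0.49, 0.20 and 0.37), RWB D22 and SSCd D22 (0.43, 0.20 and 0.43), SSCd D18 and D22 (0.41, 0.12 and 0.33), and SSCd D22 and D28 (0.29, 0.20 and 0.40), but not between SSCd D18 and D28. Same-numbered libraries also deviated together between RWB D25 and SSCd D18 (0.56, 0.22 and 0.46), RWB D25 and SSCd D22 (0.495, 0.14 and 0.41), and RWB D22 and SSCd D18 (0.34, 0.21 and 0.27). Replicate 1 of RWB D22, RWB D25, SSCd D18 and SSCd D22 was over 8% mitochondrial counts, and its part in these correlations was not tested. Groups of 2 could not be judged.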

Additional observations from a re-analysis of the deposited data

Results flagged for a closer look

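Lhx2 was called as different between RWB and SSCi in its change from D18 to D25, by a test of the difference itself. RWB received serum and supplements starting at D18 and SSCi starting at D26, so medium and culture cannot be told apart here. The interaction was -2.06 on the log2 scale (SE 0.55, edgeR adjusted p = 0.049), lower in RWB. The call was lost without any 1 of SSCi D18 replicate 1 (-1.73), SSCi D25 replicate 1 (-2.54), SSCi D25 replicate 2 (-1.53), RWB D18 replicate 1 (-1.92), RWB D18 replicate 2 (-2.28), RWB D25 replicate 1 (-1.86) or RWB D25 replicate 2 (-2.15). It was also lost with library totals (-2.12), with no filter (-2.11) and in a fit of only the groups compared (-2.08). Leaving out the libraries over 8% mitochondrial counts ended it as well (-1.805).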

How the results depend on the processing

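None of the 567 values of called members under the alternatives changed sign, while 89 of 1242 values of members not called did. Among values given here, those that turned with 1 library left out were Rax for RWB D25 against D18 (-0.80 to 0.43), at the first step of RWB (-0.20 to 1.04), SSCd (-0.29 to 0.29) and SSCi (-0.58 to 1.35) and in the interaction of RWB and SSCd (-0.22 to 1.02), and Lhx2 for SSCi D25 against D18 (-0.96 to 0.13). Rax at the first step of SSCd also turned without the libraries over 8% mitochondrial counts (-0.29). No member was called between RWB and SSCd or at D18 between any cultures under any alternative. The 6 calls in RWB from D18 to D25 stood at 6 with each library left out, and the counts were 5 to 8 for SSCd D28 and 5 to 9 for SSCi D32 against D18. With 1 library left out, counts of members called lay between 1 and 4 for RWB D22 against D18, 1 and 3 for SSCd D22 against D18, 3 and 5 for SSCd D28 against D22, 1 and 2 for SSCi D25 against D18, 1 and 4 for SSCi D32 against D25, 0 and 6 for RWB over SSCi at D25, and 0 and 1 for the interaction of RWB and SSCi. The replicate block gave 5 for RWB D22 against D18 and 3 for that interaction, adding Nr2e1 and Six3. Over all 16792 genes the block also called more. For RWB D22 it called 1231 as lower, beside 820 without it. In the interaction it called 511 as lower and 484 as higher, beside 194 and 290. Against D18 the block called 8 of 9 in SSCd D28, gaining Pax6 (-0.55, adjusted p = 0.027) and Sox9 (-0.72, 0.029) and losing Rax (-1.08, 0.079), though 1 of 3 SSCd D18 libraries deviated most like the D28 library of its own number. It called 8 in SSCi D32, gaining Pax6 (-0.76, 0.0076), and 6 for RWB over SSCi at D25. Over all genes the block called 3286 as lower in SSCd D28, 3649 in SSCi D32 and 1691 in RWB at D25. Without the block these were 2865, 3445 and 853. Library totals gave 1 for SSCd D22 against D18, 3 for SSCi D32 against D25, 3 for RWB over SSCi at D25 and 0 for the interaction. Fits of only the groups compared gave 0 for RWB D25 against D22, 0 for the D25 comparison of RWB with SSCi, and 0 for the interaction. The interaction had 0 calls with no filter and without the libraries over 8% mitochondrial counts, and 2 in DESeq2. Over all genes DESeq2 called 467 as lower and 741 as higher in this interaction. The cause of these shifts was not tested. A left-out library that leaves 1 in a group assumes that it varies like the others. For RWB against SSCi at D18 the correlation of deviations by number was -0.19. With 2 libraries a group this is a single value and could not be judged. In fits of these 4 libraries both the replicate block and crossed numbers, chosen after seeing the data, called 0 genes, with 918 and 2055 at an unadjusted p under 0.05. The Pax6 downstream share gave 6.87 to 13.1 points under its 3 alternative definitions.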
